A study of Mus musculus with 2 samples.

Results

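The potassium channel genes of the mouse are those whose symbols begin with Kcn, and 89 of the 24229 genes in the deposited table carry such a symbol. They stand for 88 different symbols, because Kcnh8 is listed under separate Ensembl identifiers. The antisense transcript Kcnq1ot1, which is not a channel gene, was set aside by name, and no expression value took part in the choice. Their RNA was measured in the suprachiasmatic nucleus (SCN), the paired hypothalamic nucleus that holds the central circadian clock, in wild-type C57BL/6 mice at postnatal day 68. The ST group was entrained to a short T-cycle and the NT group to a normal T-cycle, a T-cycle being a light-dark schedule of fixed period. The 16 mice had first spent 7 days in darkness and were then divided into groups of 8. After 4 weeks of entrainment and 5 days in darkness, tissue was cut from brain slices at circadian time 4 h. Each group is represented by 1 polyadenylated RNA library, and the labels do not say how many mice entered each library, how long each T-cycle was or whether nuclear or cytoplasmic RNA was kept.

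Potassium channels let potassium ions leave the cell, which pulls the membrane towards rest, ends action potentials and sets how often a neuron fires. Voltage-gated channels open on depolarisation, inward rectifiers pass current near rest, channels with paired pore domains carry leak currents, and calcium- or sodium-activated channels respond to ions that enter during firing. SCN neurons fire faster by day than by night, and fast delayed rectifier, A-type, BK (large-conductance calcium-activated) and leak potassium currents are known to take part in that rhythm. In glia, inward rectifiers clear the potassium that neurons release.

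All pore-forming members share a selectivity filter, a short stretch of the pore loop in which backbone oxygens hold bare potassium ions. The coding bases of that stretch are shown for members of several kinds of channel, to make the common core of the family visible. They come from the longest coding sequence of each gene in GENCODE vM1 on NCBIM37, the assembly also called mm9, and the 15 bases in capitals encode the filter, with 12 bases on either side. Kcnk1 has a filter in each of its pore domains, Kcnt1 and Kcnma1 are sodium- and calcium-activated, and the others are voltage-gated.
Kcnk1 filter 1: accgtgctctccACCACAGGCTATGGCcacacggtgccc
Kcnk1 filter 2: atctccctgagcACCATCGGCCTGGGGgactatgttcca
Kcnt1: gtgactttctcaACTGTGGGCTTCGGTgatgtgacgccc
Kcnma1: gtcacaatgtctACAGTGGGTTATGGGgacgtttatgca
Kcna6: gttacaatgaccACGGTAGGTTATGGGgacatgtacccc
Kcnc4: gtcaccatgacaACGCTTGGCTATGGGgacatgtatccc
Kcnd2: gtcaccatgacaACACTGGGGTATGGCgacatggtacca
Kcnh2: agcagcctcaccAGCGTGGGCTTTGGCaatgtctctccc

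The filter was searched for in the translated coding sequences as threonine or serine, then valine, isoleucine, threonine or leucine, then glycine, then tyrosine, phenylalanine or leucine, then glycine. Of the 88 members with a coding sequence, 73 held at least 1 match, against 1.57% of all 22737 coding genes searched. Each of the 13 Kcnk genes held 2 matches, and the 14 Kcnj, 8 ion-activated and 10 silent modifier genes held 1 each. None of the 14 auxiliary genes searched held a match. Among 29 voltage-gated genes 28 held 1, and the exception was the Kcnh8 row on the minus strand of chromosome 17 (ENSMUSG00000073383), whose coding sequence is 648 bases long. Between different genes shown above, 7 to 13 of the 15 capital bases were the same.

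The ST library held 19476689 rounded counts and the NT library 24790629, and Kcn genes took 0.285% of them in ST and 0.291% in NT. In both libraries 69 members reached at least 1 RPKM (reads per kilobase of gene model, scaled to library size, as the authors deposited it) and 18 reached at least 10. The SCN markers Avp, Vip, Rgs16, Vipr2, Six6, Lhx1, Nms, Rorb and Prok2 were all present, from 3.74 RPKM for Prok2 to 656.1 for Avp in ST, and from 4.51 to 562.8 in NT. With 1 library a group, each difference below compares these libraries and not the conditions, no p-value was computed, and every interval is a 95% interval that covers counting error only. A count of 0 allows up to 3 counts, or 0.154 RPM (the authors' deposited reads scaled to library size, without gene length) in ST.

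Levels within the family were led by a glial gene. Kcnj10, the inward rectifier of astrocytes and oligodendrocytes, stood at 100.02 RPKM in ST and 113.05 in NT, and ranked 584th of all genes in ST and 503rd in NT. The next member was Kcnab2, a cytosolic beta subunit of Kcna channels, at 24.9 and 25.4 RPKM. Kcnc4 (21.5 in ST and 23.1 in NT), Kcnk1 (22.5 and 21.5), Kcna6 (21.0 and 22.2), Kcnip4 (20.8 and 18.9), Kcnip3 (18.7 and 20.4), Kcnc2 (19.3 and 18.9), Kcnj9 (19.4 and 18.2) and Kcnd2 (18.4 and 18.3) followed closely. The order of those genes thus differed between the libraries, while Kcnj10 stood apart from all of them in both. RPKM depends on the length of the gene model, which follows from the deposited values as 431 bases for Kcne1l and 15210 for Kcnh7, so levels of genes with unusual models are less certain.

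**Figure D1:**
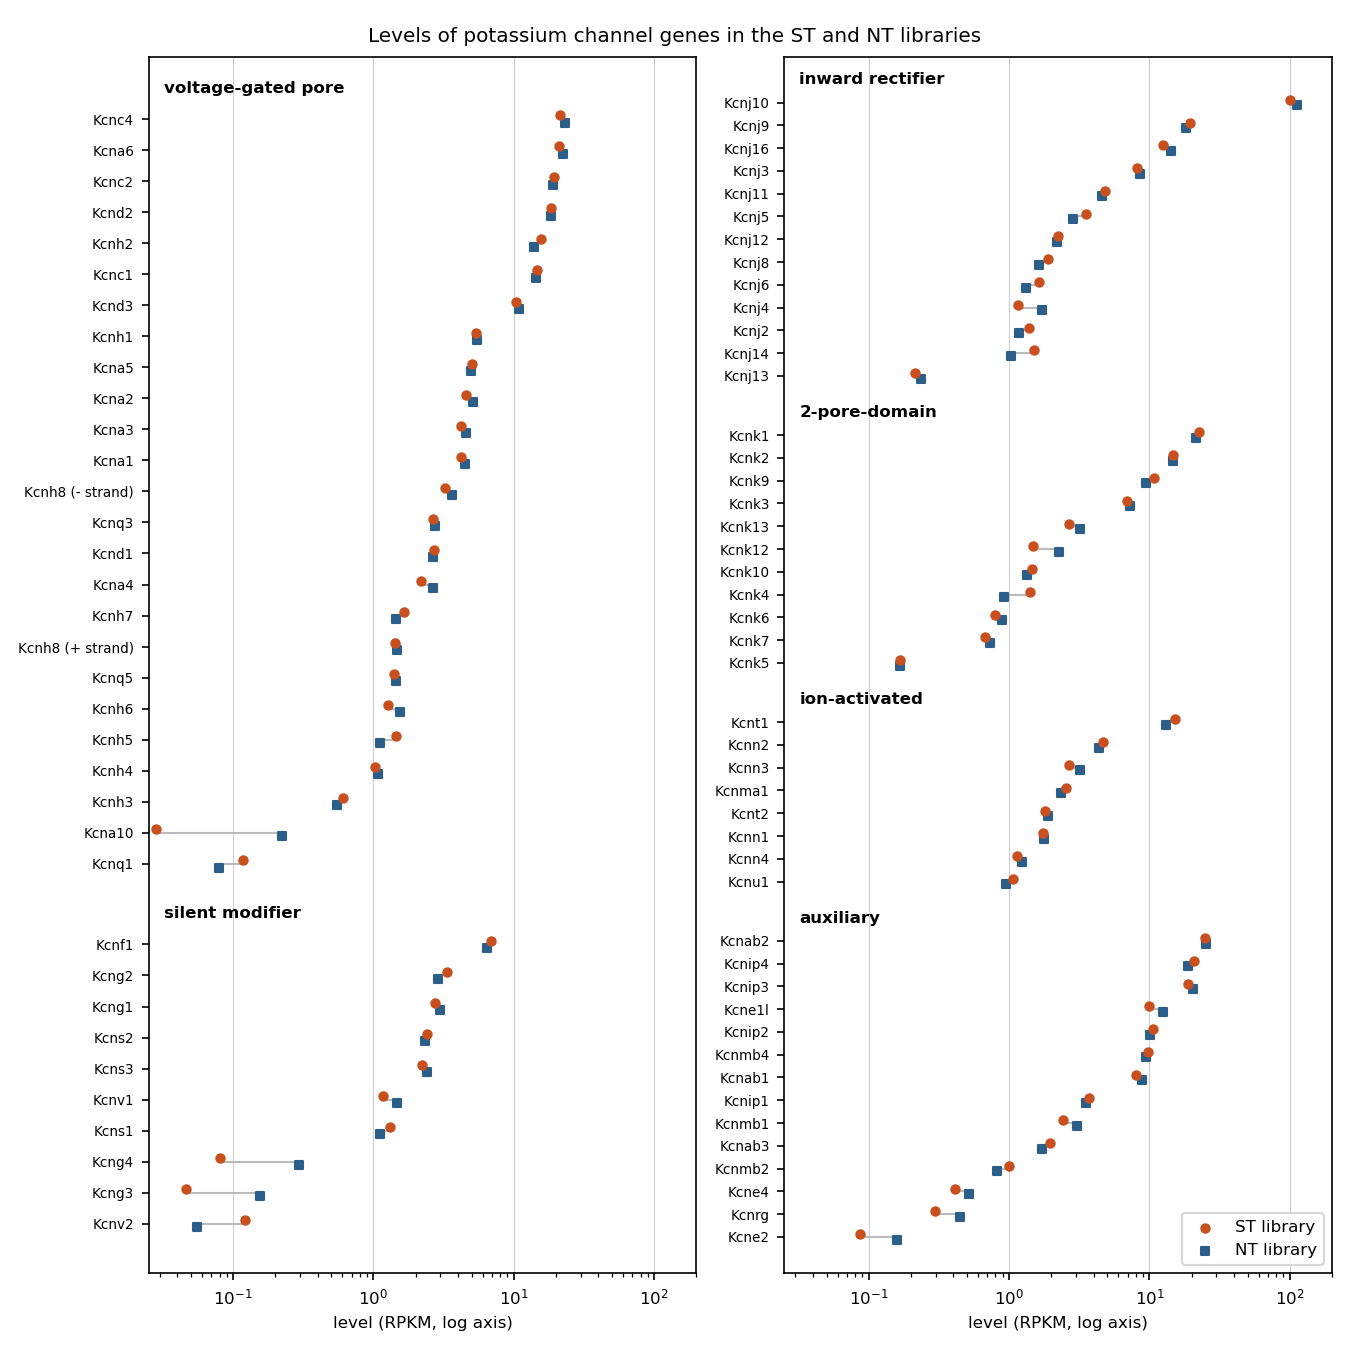
Level of each member in RPKM on a log axis, with circles for the ST library and squares for the NT library, grouped by role. The figure draws 81 genes with a read in both libraries, and Kcnj10 at 100.02 RPKM in ST and 113.05 in NT lies to the right of all others.

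Summed over members, voltage-gated pore genes gave 202.2 RPKM in ST and 204.1 in NT, which is 34.4% and 33.9% of the family. Inward rectifiers gave 158.4 and 170.9 RPKM, or 26.9% in ST and 28.4% in NT. Auxiliary subunits gave 112.5 and 116.0 RPKM, or 19.1% and 19.2%. The order of roles was the same in both libraries with all genes counted. With genes that share no reads, inward rectifiers held 32.4% in ST and 33.9% in NT against 32.5% and 32.3% for voltage-gated genes, so the first place differed, and auxiliary subunits held 11.6% in both. The share of the inward rectifiers rests on Kcnj10: the remaining subfamily without Kcnj10 and Kcnj16 summed to 45.9 RPKM in ST and 43.6 in NT. Kcnk genes gave 63.6 and 62.6 RPKM, ion-activated pore genes 30.8 and 29.0, and silent modifiers 20.4 and 20.1. By subfamily, Kcnc (62.0 RPKM in ST and 63.3 in NT) was close to Kcnk, and Kcnip (53.8 and 52.9) came next, ahead of Kcna (41.2 and 44.1), Kcnab (34.8 and 35.97), Kcnh (31.8 and 30.2), Kcnd (31.4 and 31.9) and Kcnq (28.4 and 27.7).

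**Figure D2:**
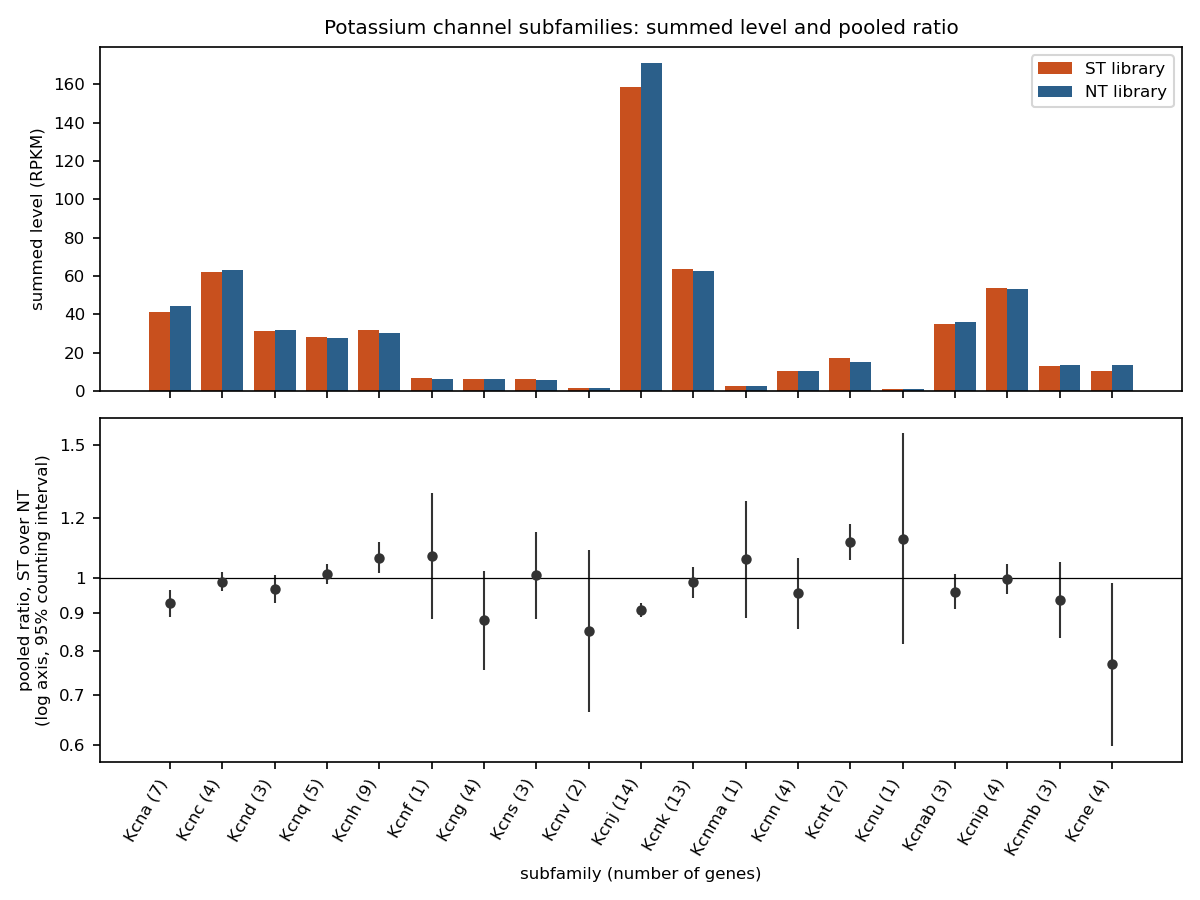
Above, the RPKM summed over the genes of each subfamily in the ST library and the NT library. Below, the ratio of their summed normalised counts, ST over NT, on a log axis with 95% counting intervals. Kcne at 0.769, Kcnj at 0.907 and Kcna at 0.926 lie below 1, and Kcnt at 1.12 and Kcnh at 1.06 above it. Kcne rests on 106 counts in ST and 174 in NT, and Kcnj10 and Kcnj16 supply most counts of Kcnj. Kcnrg, with 10 counts in ST and 19 in NT, and 1 other single-gene subfamily are not drawn.

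Ratios of ST to NT were small across the family. They were taken on counts scaled by median-of-ratios size factors, and 70 of the 89 members had a mean normalised count of at least 50 and are called measured. The median log2 ratio of these was -0.01, with quartiles of -0.13 and 0.10, against a median of -0.0024 and quartiles of -0.08 and 0.07 over all 14343 measured genes. The medians thus lay close together, but the family's ratios were spread more widely: 80% of its measured genes were within 1.2-fold, against 90.5% of all measured genes. Its counts were lower too, with a median normalised count of 253.2 over measured members and 621.2 over all measured genes, and the part of depth in that spread was not tested.

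Of the 70 measured members 0 reached a 2-fold difference, where 0.0209% of the measured genes lay that far above equality in ST and 0.23% that far below. Below the count limit and with a read in both libraries, Kcng4, Kcng3, Kcna10 and Kcnv2 had ratios past 2-fold on 28 counts or fewer a library. Ratios of at least 1.2-fold were found for 5 members on the higher side and 9 on the lower, which is 7.14% and 12.9% of those measured, against 3.37% and 6.13% of all measured genes. The whole interval lay above 1 for 5 members (7.14%, against 7.79% of all measured genes) and below 1 for 10 (14.3%, against 10.2%). The share above 1 was near the background, and the share below 1 rests on 10 genes. Both conditions together, 1.2-fold and an interval clear of 1, held for Kcnj14 and Kcnj5 on the higher side and for Kcnk12, Kcnj4, Kcnmb1 and Kcna4 on the lower.

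**Figure D3:**
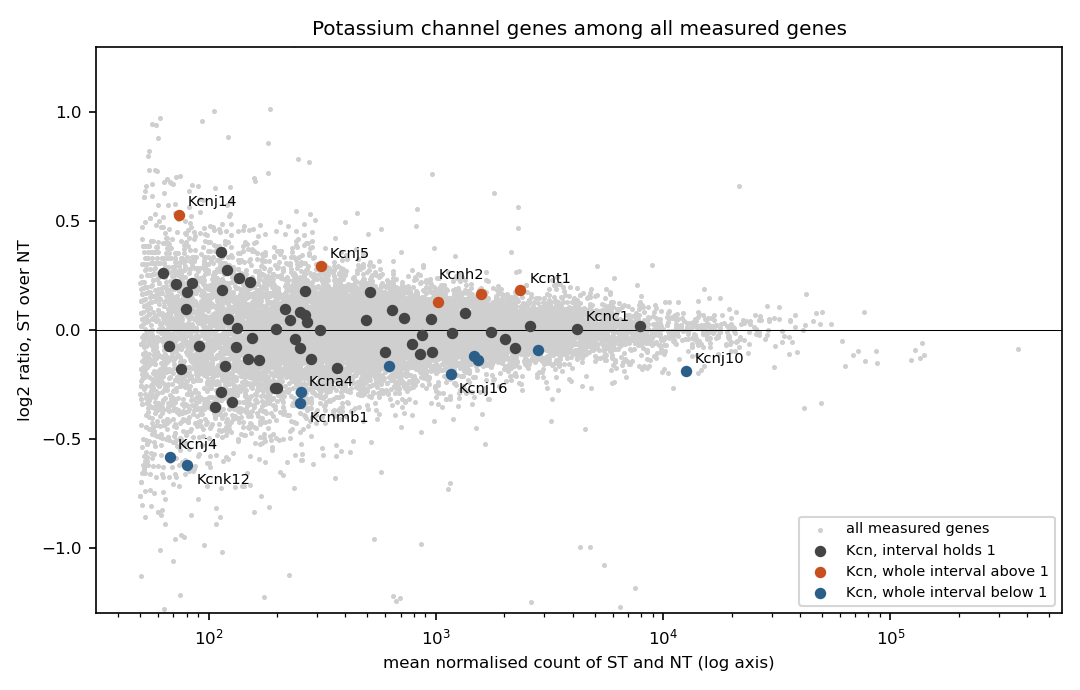
Log2 ratio of ST to NT against the mean normalised count of both libraries (log axis), for all measured genes in grey and the 70 measured Kcn genes in colour by interval. Kcn genes scatter around 0 within the grey cloud, more widely at low counts, and genes beyond 1.3 on the vertical axis are not drawn.

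Summed over all members, normalised counts were lower in ST at a ratio of 0.970 (0.959 to 0.981), from 55496 raw counts in ST and 72209 in NT. Without Kcnj10 the ratio was 0.995 (0.982 to 1.01), a check chosen after its value was known. All genes together gave 0.992 on the same scale.

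Among voltage-gated pore genes, the fast delayed rectifiers Kcnc1 and Kcnc2, which let neurons fire at high rates, were close to equal. Kcnc1 had 3740 counts in ST and 4702 in NT, a ratio of 1.004 (0.961 to 1.05), and Kcnc2 had 2328 and 2897, a ratio of 1.01 (0.960 to 1.07). Kcnc4, of the same subfamily, had 1258 and 1724 counts and was slightly lower in ST, with a ratio of 0.921 (0.856 to 0.991). At these counts the intervals of Kcnc1 and Kcnc2 were narrow and held 1.

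A-type channels of the Kcnd subfamily, which activate below threshold and slow the approach to the next spike, showed no detectable difference at this depth. Kcnd2 had 1556 counts in ST and 1974 in NT (ratio 0.995, 0.930 to 1.06), and Kcnd1 had 276 and 348 (1.001, 0.852 to 1.18). Kcnd3, with 1934 and 2587 counts, was at 0.944 (0.889 to 1.001) and shares reads. Kcna4, the A-type member of the Kcna subfamily, was lower in ST, with 204 counts against 314 in NT, 2.19 RPKM against 2.64, and a ratio of 0.820 (0.684 to 0.981). Kcna4 (ENSMUSG00000042604) lies on chromosome 2 from 107130796 to 107138659 in mm9 coordinates.

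The Kcna subfamily as a whole leaned lower in ST. It holds the axonal delayed rectifiers Kcna1 and Kcna2. Ratios were under 1 for 5 of its 6 measured genes, against 7295 of all 14343 measured genes. The median log2 ratio of the subfamily was -0.12. Pooled over the subfamily, the ratio was 0.926 (0.888 to 0.964, 3989 counts in ST and 5439 in NT). Kcna6 supplied most of those counts, at 2430 in ST and 3269 in NT (0.938, 0.890 to 0.989). The intervals of Kcna1 (0.842 to 1.02), Kcna2 (0.765 to 1.03), Kcna3 (0.728 to 1.13) and Kcna5 (0.820 to 1.23) held 1. Kcna10 was close to absent, with 1 count in ST and 10 in NT.

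The Kcnq subfamily, which includes the M-current genes that hold neurons back from repeated firing, gave a pooled ratio of 1.01 (0.983 to 1.04). Counts differed widely between its members, so the pooled ratio does not stand for each of them. Kcnq3 stood at 2.64 RPKM in ST and 2.76 in NT, with a ratio of 0.947 (0.736 to 1.21). Kcnq5 was at 0.971 and shares reads, and the cardiac and epithelial channel Kcnq1 had 7 counts in ST and 6 in NT.

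The Kcnh subfamily, related to the ether-à-go-go channels of flies, had a pooled ratio of 1.06 (1.02 to 1.12). Of its 8 measured rows 5 lay under 1, and the median log2 ratio was -0.05. Both rows of Kcnh8, at 0.892 and 0.951, are among those 5. Without Kcnh2 the pooled ratio was 1.02 (0.957 to 1.09), and with a filter of 200 counts the median turned to 0.17. Kcnh2, whose product carries the rapid delayed rectifier current of the heart, had 1480 counts in ST and 1664 in NT, 15.7 RPKM against 13.9, and a ratio of 1.12 (1.05 to 1.205). It shares reads with other features, so its value is less certain. Kcnh7, another ERG-type gene that shares reads, was at 1.13 (0.998 to 1.28), Kcnh5 at 1.28 (0.981 to 1.68) and Kcnh6 at 0.820 (0.623 to 1.08). Kcnh1 was at 0.986 (0.896 to 1.08).

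Silent modifiers form no channel alone and change the gating of other voltage-gated subunits when they join them. Their levels were low, from 1.17 to 6.93 RPKM in ST and from 1.12 to 6.43 in NT for the 6 measured genes, and all 6 intervals held 1. Among those 6 genes Kcnf1 led with 6.93 RPKM in ST and 6.43 in NT (ratio 1.07, 0.881 to 1.297), followed by Kcng1 at 2.72 and 2.96 (0.911, 0.768 to 1.08). Kcnv1 was at 0.794 (0.612 to 1.03) and Kcns1 at 1.16 (0.825 to 1.63). Kcng4, below the count limit, had 6 counts in ST and 28 in NT, a ratio of 0.270 (0.0916 to 0.666), and Kcng3 had 3 and 13.

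Among inward rectifiers, the pair known from glia had the highest counts of the 3 genes with an interval below 1. Kcnj10 had 10529 counts in ST and 15148 in NT, and Kcnj16, which forms mixed channels with it in glia, had 960 and 1395. Both were lower in ST, at ratios of 0.877 (0.856 to 0.899) and 0.869 (0.799 to 0.944). Kcnj10 (ENSMUSG00000044708) lies on the plus strand of chromosome 1 from 174271341 to 174304216, and Kcnj16 (ENSMUSG00000051497) on the plus strand of chromosome 11 from 110829347 to 110889282. In bulk tissue, fewer cells of a type and less RNA per cell cannot be told apart.

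The markers of the cells that use Kcnj10 were lower in ST as well. Of 8 astrocyte markers 7 had intervals below 1, against 10.2% of all measured genes, and Aldh1l1 was at 1.03. At high counts a small difference is enough for that. Slc1a3, with 19922 counts in ST and 25908 in NT, had a ratio of 0.971 (0.953 to 0.989). The median log2 ratio of the astrocyte list was -0.10, and its summed level was 721.4 RPKM in ST and 782.6 in NT. All 10 oligodendrocyte markers were lower with intervals below 1, the median was -0.30, and the sums were 953.1 and 1162 RPKM. The log2 ratios of Kcnj10 and Kcnj16, -0.19 and -0.20, lay between the medians of those lists. Among 10 neuron markers the median was -0.02, with 1 interval above 1 and 3 below it, and the sums were 1182 RPKM in both libraries. The part of cell composition in the Kcnj10 and Kcnj16 ratios was not tested.

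G-protein-gated inward rectifiers, which transmitters open through their receptors to silence neurons, had ratios on both sides of 1. Kcnj5 was higher in ST, with 307 counts against 316 in the deeper NT library, 3.51 RPKM against 2.84, and a ratio of 1.23 (1.04 to 1.44). Kcnj6 pointed in the same direction at 1.21 (0.931 to 1.57, 117 counts in ST and 122 in NT), but its interval held 1. The more abundant Kcnj9 (1235 and 1475 counts) was at 1.06 (0.979 to 1.14) and Kcnj3 (825 and 1115) at 0.934 (0.852 to 1.02). Of these 4 genes, Kcnj5 had an interval clear of 1.

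Strong inward rectifiers, which fix the resting potential, also went both ways. Kcnj14 was higher in ST, with 78 counts against 68, 1.51 RPKM against 1.03, and a ratio of 1.45 (1.03 to 2.03). Kcnj4 was lower, with 48 counts against 91, 1.15 RPKM against 1.71, and a ratio of 0.666 (0.459 to 0.955). Both rest on fewer than 100 counts a library, and their intervals are among the wider ones. Kcnj2 was at 1.17 (0.925 to 1.47) and Kcnj12 at 1.01 (0.785 to 1.29).

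The pore genes of ATP-sensitive channels, which couple metabolism to firing, showed no difference at this depth. Kcnj11 had 110 counts in ST and 134 in NT (1.04, 0.798 to 1.34), and Kcnj8, a marker of mural cells, had 81 and 88 (1.16, 0.848 to 1.59). Kcnj13 of the choroid plexus had 5 and 7 counts, and Kcnj15 had 0 in ST and 1 in NT. Over the 12 measured Kcnj genes, 8 were above 1 and 4 below, with a median log2 ratio of 0.07, while the pooled ratio was 0.907 (0.888 to 0.926). The median and the pooled ratio therefore pointed in opposite directions, and the median turned to -0.10 when genes under a mean count of 200 were left out. Without Kcnj10 and Kcnj16, a set chosen with earlier results known, the pooled ratio was 1.04 (0.992 to 1.09).

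Leak channels of the Kcnk subfamily, which carry a steady current that holds SCN neurons at rest by night, were close to equal where counts were high. Kcnk1 had 864 counts in ST and 1053 in NT (1.04, 0.945 to 1.13), and the stretch-sensitive Kcnk2 had 1043 and 1327 (0.992, 0.914 to 1.08). The acid-sensitive Kcnk3 was at 0.933 (0.831 to 1.05) and Kcnk9 at 1.13 (0.951 to 1.35). Those 4 intervals all held 1.

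Kcnk12 was the gene of this subfamily that stood out. It had 56 counts in ST and 109 in NT, 1.49 RPKM against 2.27, and a ratio of 0.648 (0.461 to 0.903), the lowest of all measured members. Kcnk12 (ENSMUSG00000050138) lies on the minus strand of chromosome 17 from 88145177 to 88197334. Its closest relative Kcnk13, known from microglia, had 159 and 241 counts and a ratio of 0.833 (0.677 to 1.02). Kcnk6, also known from microglia, was at 0.883 (0.630 to 1.23), and the temperature-sensitive Kcnk10 at 1.07 (0.773 to 1.48). Microglial markers were lower in ST in 8 of 8 cases, 6 with intervals below 1, against 10.2% of all measured genes. Their sums were 106.8 RPKM in ST and 125.1 in NT, and their part in the Kcnk13 value was not tested. Kcnk4, under the count limit, had 47 counts in ST and 39 in NT (1.52, 0.974 to 2.39). Kcnk15 and Kcnk18 had no count in ST and 1 and 2 in NT.

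Ion-activated channels were led by Kcnt1, which opens as sodium enters during firing. Kcnt1 was higher in ST, with 2215 counts against 2457, 15.2 RPKM against 13.2, and a ratio of 1.14 (1.07 to 1.21). It is on chromosome 2 from 25719315 to 25773793, and it shares no reads. Its relative Kcnt2 was at 0.946 (0.790 to 1.13), and Kcnu1, best known from sperm, had 76 counts in ST and 85 in NT (1.13, 0.817 to 1.56).

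BK and SK genes, which shape the afterhyperpolarisation, did not differ beyond counting error except for a BK subunit of vessels. Kcnma1, the pore of the BK channel, had 231 counts in ST and 275 in NT, 2.53 RPKM against 2.36, and a ratio of 1.06 (0.886 to 1.27). The SK genes Kcnn1 (0.977, 0.776 to 1.23), Kcnn2 (1.05, 0.882 to 1.249) and Kcnn3 (0.833, 0.678 to 1.02) had intervals that held 1, and Kcnn4 had 42 counts in ST and 58 in NT. The brain BK subunit Kcnmb4, which shares reads, stood at 9.81 RPKM in ST and 9.48 in NT, above its pore gene per length, with a ratio of 1.03 (0.863 to 1.22). Kcnmb2 had 61 and 64 counts (1.203, 0.833 to 1.74).

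Kcnmb1, the BK subunit of smooth muscle, was lower in ST, with 198 counts against 315, 2.43 RPKM against 3.03, and a ratio of 0.793 (0.661 to 0.951). It lies on the plus strand of chromosome 11 from 33863013 to 33873641, wholly inside Kcnip1, which is on the other strand. The counting is not stated to use strand, so how reads were assigned where these genes overlap is not known. Neither gene is marked as sharing reads, and Kcnip1 itself was at 1.03 (0.910 to 1.17). The listed mural markers Rgs5, Pdgfrb, Acta2, Cspg4, Anpep and Tagln were all lower in ST. Intervals were below 1 for 4 of 6, against 10.2% of all measured genes, and the sums were 37.2 RPKM in ST and 45.2 in NT. Kcnj8, also known from mural cells but not on that list, was at 1.16 (0.848 to 1.59). Whether fewer mural cells entered the ST tissue was not tested.

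Auxiliary subunits of voltage-gated channels had high levels and small ratios. Kcnip proteins bind calcium and bring Kcnd channels to the membrane. Kcnip4 had 945 counts in ST and 1092 in NT, a ratio of 1.09 with an interval from just above 1 to 1.19. Kcnip3, also known as calsenilin, was lower in ST, with 1294 against 1797 counts and a ratio of 0.909 (0.846 to 0.977), and it shares reads. Kcnip2 was at 1.04 (0.936 to 1.15). The summed level of the Kcnip genes, 53.8 RPKM in ST and 52.9 in NT, exceeded that of the Kcnd genes they serve, 31.4 and 31.9 RPKM.

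The beta subunits of Kcna channels gave ratios on both sides of 1. Kcnab1 was lower in ST, with 521 counts against 737 and a ratio of 0.892 (0.796 to 0.999), while Kcnab2 was at 0.971 (0.913 to 1.03) and Kcnab3 at 1.14 (0.868 to 1.49), and Kcnab2 and Kcnab3 share reads. Of the small Kcne subunits, Kcne1l was measured alone, at 83 counts in ST and 134 in NT (0.782, 0.587 to 1.04). Kcne4 had 20 and 32 counts, Kcne2 had 3 and 7, and Kcne3 had 0 in ST and 1 in NT.

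**Figure D4:**
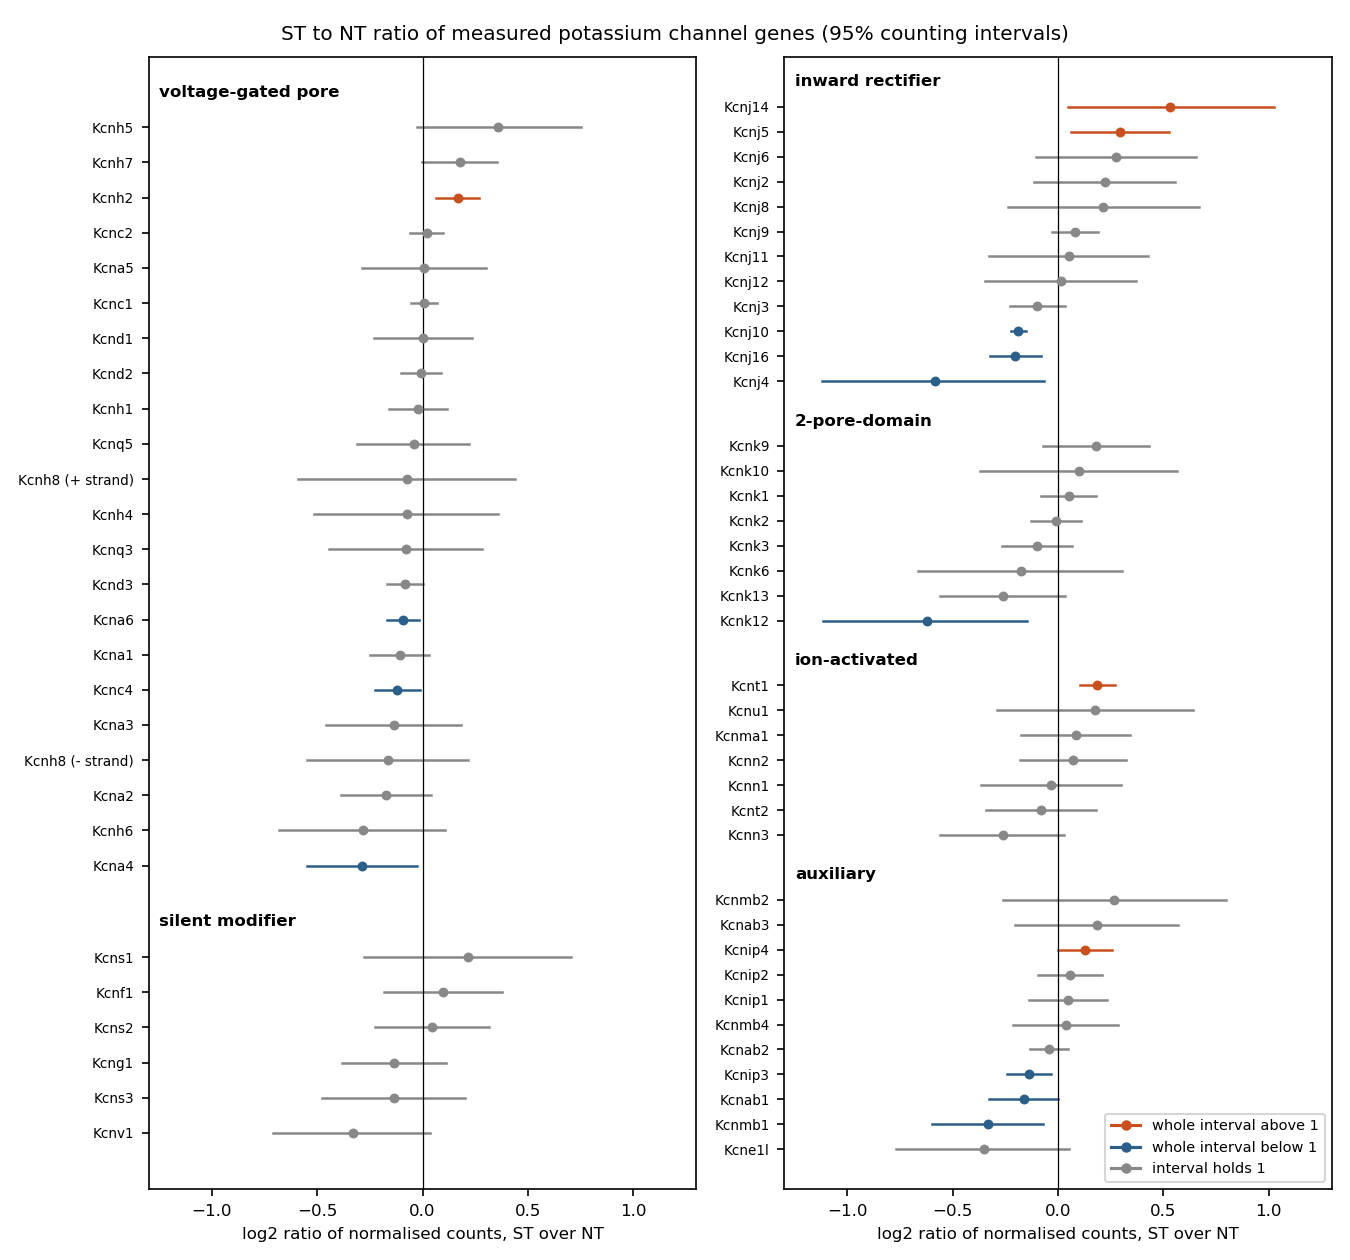
Log2 ratio of ST to NT for 66 of the 70 measured members by role, with 95% counting intervals. The 5 intervals wholly above 1 belong to Kcnj14, Kcnj5, Kcnt1, Kcnh2 and Kcnip4, and the 10 below 1 include the narrow interval of Kcnj10.

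Of the genes behind the potassium currents of SCN firing, from the fast delayed rectifiers to the G-protein-gated genes, 18 were taken as a list. All 18 were measured, 11 were above 1 and 7 below, and the median log2 ratio was 0.01. Intervals above 1 numbered 0 and below 1 numbered 1, that of Kcna4, against 7.79% and 10.2% of all measured genes. Kcnj5, Kcnc4, Kcnk12 and Kcnmb1, of the same classes, had intervals clear of 1 and are not on the list. The list was chosen with earlier results known, so these numbers depend on which genes were listed. Pooled counts of the list gave a ratio of 1.003 (0.981 to 1.03). The list of 7 potassium channel genes known from glia, vessels or choroid plexus had 6 measured, 4 below 1 and 2 above, with a median of -0.18. Kcnj10 and Kcnj16 had intervals below 1 there, while the vascular genes Kcnj8 and Kcnj2 were at log2 ratios of 0.21 and 0.22, with intervals that held 1. All 7 endothelial markers were lower in ST, 6 with intervals below 1, against 10.2% of all measured genes. Their median was -0.32, with sums of 37.5 RPKM in ST and 47.6 in NT. The part of cell composition in the ratios of the vascular genes was not tested. Of 4 choroid plexus markers 2 were measured, both above 1 with intervals that held it, and Ttr had 18 counts in ST and 48 in NT.

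**Figure D5:**
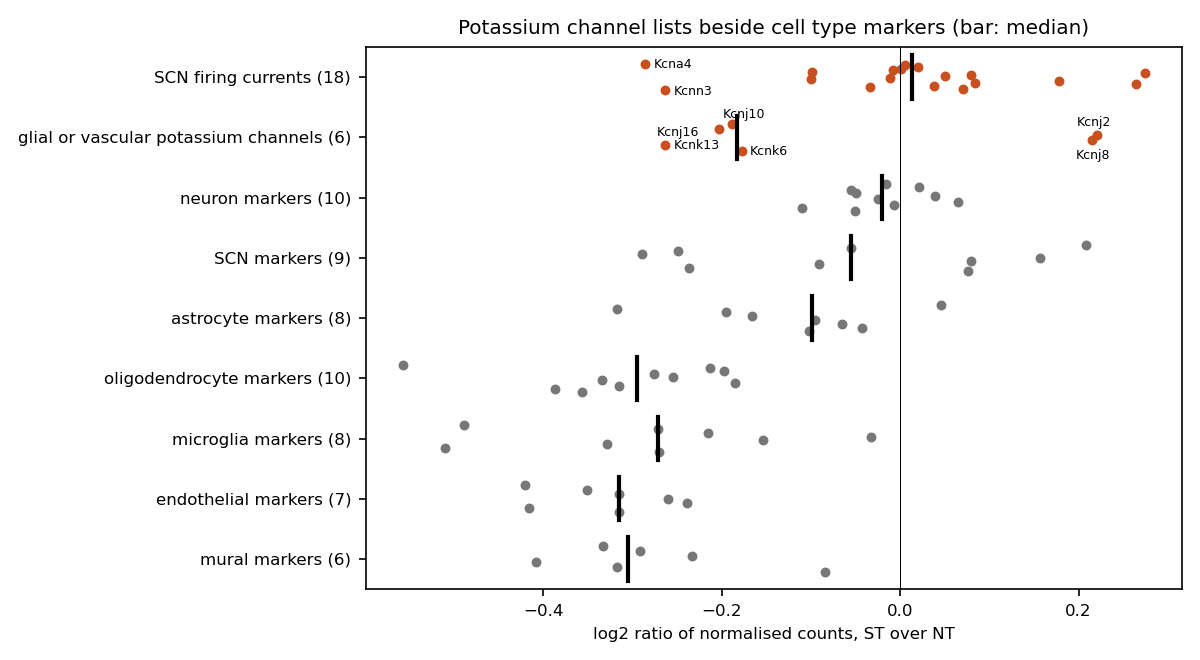
Log2 ratio of ST to NT for each measured gene of the potassium channel lists (coloured) and of the cell type marker lists (grey), with the list median as a bar and the number of measured genes in brackets. The firing list has its median at 0.01 and the neuron markers at -0.02. In the glial or vascular list Kcnj10, Kcnj16, Kcnk13 and Kcnk6 lie on the lower side in ST, and Kcnj8 and Kcnj2 on the higher side. Kcna4 and Kcnn3 of the firing list lie on the lower side too.

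Partners of potassium channels that carry other names gave a similar picture. Of 18 listed genes 15 were measured, 8 above 1 and 7 below, with a median log2 ratio of 0.01. Intervals were above 1 for 3 and below 1 for 5, against 7.79% and 10.2% of all measured genes. The Kcnd partners Dpp6 and Dpp10 were at 0.958 (0.926 to 0.991) and 1.05 (0.971 to 1.13), and both share reads. Atp1b2, the glial beta subunit of the sodium-potassium pump that restores the gradient, was at 0.936 (0.917 to 0.954). Abcc9, the sulfonylurea receptor that pairs with Kcnj8 in mural cells, had 145 counts in ST and 231 in NT (0.792, 0.639 to 0.979) and shares reads, while Abcc8, the neuronal one, was at 1.12 (0.951 to 1.33).

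Members that lie next to each other in the genome did not all have like ratios. Kcnj9 and Kcnj10 are 11.9 kb apart on chromosome 1, on opposite strands, and their intervals, 0.979 to 1.14 and 0.856 to 0.899, did not overlap. Kcnj16 and Kcnj2, 38.2 kb apart on chromosome 11, had log2 ratios of -0.20 and 0.22, though their intervals met between 0.925 and 0.944. The Kcna genes sit in clusters, Kcna5, Kcna1 and Kcna6 on chromosome 6 and Kcna3, Kcna2 and Kcna10 on chromosome 3. Within those clusters Kcna6 stood at 21.0 RPKM in ST and 22.2 in NT, against 4.18 and 4.47 for its neighbour Kcna1, a difference in level that both libraries share.

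In the authors' deposited table, 0 of the 89 members had an adjusted p under 0.05, against 0.202% of all 24229 genes. Unadjusted values under 0.05 were given in the authors' deposited table for 2 members, Kcng4 (p = 0.00424, adjusted p = 0.810) and Kcna10 (p = 0.0338, adjusted p = 1). Both were below the count limit used here, at 28 counts or fewer a library. Those p-values come from 1 library a group and carry no biological replicate error.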

How the data were processed

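RNA sequencing of SCN tissue gave 1 library for ST and 1 for NT. CASAVA 1.8.2, TopHat 1.2, DESeq and the build mm9 are named in the submitters' processing notes, with no role or order; the counter is not given in the sources used here. Per the file headers, the authors deposited estimated counts (RC), RPKM, RPM, and for ST over NT a fold ratio, its log2 value and p-values. Estimated counts are fractional (tolerance 1e-06) for 12 members, said to share reads. The table's other 3 columns, which hold means, took no part.

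Counts were rounded and scaled by median-of-ratios size factors over all genes (0.890 for ST, 1.12 for NT). Log2 ratios used a pseudocount of 0.5; ratios used none. Intervals are exact (Clopper-Pearson, 95%) for the share of a gene's counts that came from ST, converted to a ratio with the size factors; these reads carry no molecular identifiers, so they are not independent molecules. Measured genes had a normalised count averaging 50 or more; members nearest to that limit had 62.7 and 49.4. A single library per group allowed no test, and the precision is that of 19476689 and 24790629 counts. The calculations were tested on simulated data. Coding bases are shown in place of protein stretches. Strand and chromosome codes were translated through GENCODE vM1, which held 88 of 89 identifiers. Tools were Python 3.11.15, scipy 1.17.1, Biopython 1.88 and, for the alternative TMM factors, edgeR 4.0.16. Named genes were the member with the highest RPKM of each subfamily, measured members at least 1.2-fold apart with an interval clear of 1, and the firing and glial lists. Other members are named for completeness, having been seen. Members and lists were chosen with earlier results of these data known. Some genes are not reported here. Alternatives were other scalings, count filters, pseudocounts and whole counts only.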

Additional observations from a re-analysis of the deposited data

How the results depend on the processing

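No paired analysis was possible because ST and NT have 1 library each, which also leaves no replicate to omit. The number of members at least 2-fold apart was 1 (Kcng4) with a filter of 10 counts, and 2 (Kcnk12 and Kcnj4) lay at least 1.5-fold apart under that looser rule. Without Kcnj10, an alternative chosen after seeing the data, the pooled log2 ratio of the family was -0.0078; leaving out Kcnh2 was chosen in the same way. Shares of summed RPKM moved by construction when genes were left out. With whole counts only, voltage-gated genes held 32.5% in ST and 32.3% in NT, inward rectifiers 32.4% and 33.9%, and auxiliary subunits 11.6% in both, so inward rectifiers came first in NT and voltage-gated genes in ST. Without the most abundant member of each subfamily, voltage-gated genes held 37.4% in both, inward rectifiers 22.8% in ST and 22.2% in NT, and auxiliary subunits 18.3% in ST. The family median, -0.0095, turned to 0.0027 with total-count scaling, which moved every log2 ratio by 0.012, and 10 of 116 subfamily medians changed sign over the alternatives run. With a filter of 200 those of Kcnh (0.17), Kcnj (-0.10), Kcnk (0.02), Kcnmb (-0.15) and Kcnn (0.07) did so, with whole counts only those of Kcnc, Kcnmb and Kcnq, and with total-count scaling those of Kcnd and Kcnq. The number of intervals above 1 ranged from 4 to 6 and below 1 from 8 to 11 over the alternatives run. All 168 values of named genes under other scalings, a pseudocount of 5 or the authors' RPKM stayed within the counting interval, although Kcnk2 and Kcnd2, both near 0, changed sign with total-count scaling and with the authors' RPKM. Levels recomputed from deposited gene lengths were not run, because the table holds no length column. Depth leaves an interval of 0.856 to 0.899 for Kcnj10 and of 1.03 to 2.03 for Kcnj14.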
